A study of Saccharomyces cerevisiae with 14 samples.

Results

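The haploid-specific genes of budding yeast described here are GPA1, STE4, STE18, STE5, FUS3, FAR1, AXL1, NEJ1, RDH54 and HO. They were taken by name, as genes known to be repressed by the a1-alpha2 repressor of diploid cells, with earlier results of these data known. Each was measured by 1 probe set. They make up 10 of the 10928 probe sets on the array and 10 of the 5498 probe sets tested, which stand for 5449 genes. Transcript levels were measured on 14 Affymetrix Yeast 2.0 arrays, 1 per culture, with all cultures in YPD, a rich medium, and harvested in log phase. The groups of 2 arrays each were wild type with 5 mM nicotinamide, the strains npt1Δ, pnc1Δ, bna1Δ and tna1Δ, and the untreated wild-type pairs ML1 and ML8. Every strain is MATa his3D200 leu2D1 met15D0 trp1D63 ura3-167, so all are haploids of mating type a, and each deletion strain carries in addition kanMX4 in place of the named gene. NAD+ is recycled from nicotinamide by way of Pnc1 and then Npt1, Bna1 belongs to the route that builds it from tryptophan, and Tna1 imports nicotinic acid. The series describes duplicate cultures, the labels do not say which wild-type pair belongs to which condition, and they give no hybridisation batch, so the 4 wild-type arrays served as a single control. P values therefore measure the spread between these cultures, taken for each probe set as 1 estimate shared by all 14 arrays. The number of arrays limits the precision.

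Haploid yeast cells of both mating types express these genes, which serve mating, the repair of broken DNA and mating-type switching. In an a/alpha diploid the a1 and alpha2 proteins together form a repressor that keeps them off, while alpha2 with Mcm1 keeps the a-specific genes off. A MATa cell also holds silent copies of the mating-type genes at HML and HMR, which are kept silent by the Sir2, Sir3 and Sir4 proteins. Nicotinamide is a product of the reaction of Sir2 and the other sirtuin deacetylases and inhibits them, and the deleted genes bear on the NAD+ that these enzymes use.

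All 10 genes were well above background in untreated MATa cells. Background was set on each array by the 95th percentile of 1746 probe sets whose annotated gene was not found in the S. cerevisiae reference. It lay between 2.22 and 2.26 on the log2 scale. No member fell below this limit on any of the 14 arrays. Levels are log2 signals as deposited, and they are compared here between arrays for the same gene, since the levels of different probe sets do not share a scale. The median signal of an array was between 9.75 and 9.84, and the 2 arrays of a group correlated at 0.992 (ML1) to 0.998 (pnc1Δ) over the tested probe sets. The ML1 arrays stood furthest apart, with 110 probe sets (2.0%) more than 2-fold different between them, against 12 to 48 in the other pairs.

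In nicotinamide all 10 haploid-specific genes fell. The median difference from wild type was -3.05 (log2), from -5.64 for FAR1 to -2.14 for RDH54, against a median of -0.0045 over all tested probe sets. Each was called lower at an adjusted p under 0.05 (limma, Benjamini-Hochberg over all 5498 probe sets), a call that 386 probe sets received (7.02%). A fall of at least 4-fold was called for 32 probe sets (0.582%), and 10 of these are the members. This line was not among the planned thresholds, and the weakest member, RDH54 at -2.14, lies just past it. Because the members were chosen with earlier results of these data known, these shares are descriptions and not a test of the group. On both nicotinamide arrays every member was below all 4 wild-type arrays, as were 16.7% of all probe sets. In bulk samples such as these, fewer cells that express a gene and less RNA per cell cannot be told apart. The plot of signals by array shows the 2 nicotinamide arrays below the 12 others for each gene.

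**Figure D1:**
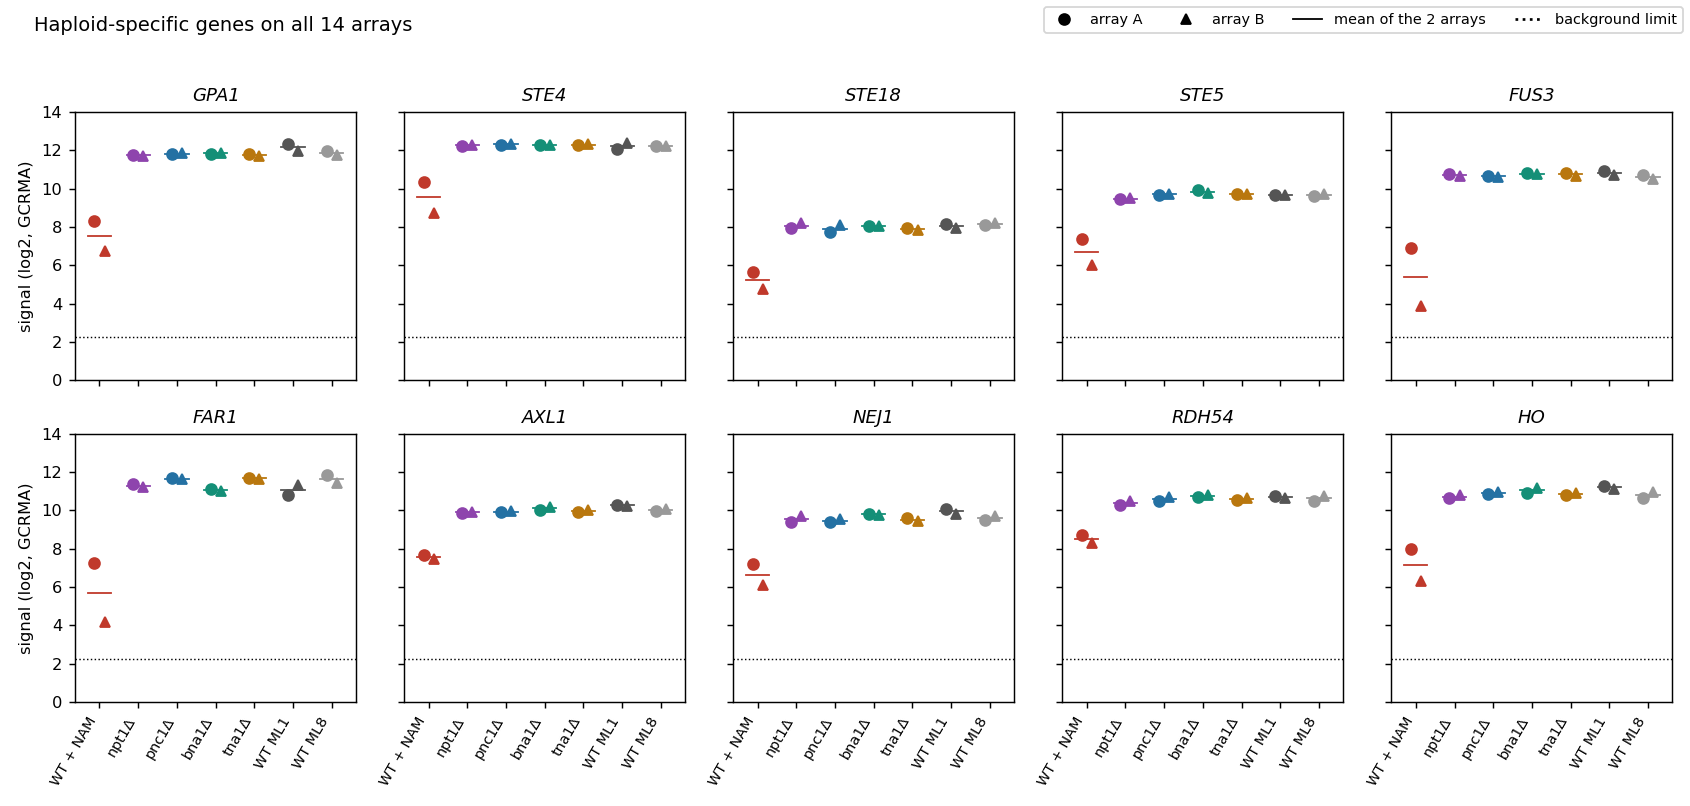
Log2 signal of the 10 haploid-specific genes on each of the 14 arrays, 1 panel per gene, with points for single arrays and the conditions ahead of wild type. The 2 nicotinamide arrays lie below all other arrays in every panel, by 1.57 (RDH54) to 3.61 (FUS3) at the closest.

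GPA1, STE4 and STE18 encode the alpha, beta and gamma subunits of the G protein that couples the pheromone receptors to the cell. GPA1 read 8.33 and 6.75 on nicotinamide arrays A and B, between 11.68 and 11.87 (median 11.80) on the 8 deletion arrays, and 12.33, 11.97, 11.97 and 11.76 on the wild-type arrays ML1 A, ML1 B, ML8 A and ML8 B. The nicotinamide arrays did not overlap any other array, and the deletion arrays lay within or just under the wild-type range. The fall was 22.1-fold (log2 difference -4.47 ± 0.33 SE, limma adjusted p = 4.97e-06). The SD of the 2 nicotinamide arrays was 1.12. This SE pools it with the tighter other groups and so understates it.

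STE4 stood at 10.33 and 8.75 in nicotinamide, at 12.24 to 12.36 (median 12.28) in the deletion strains, and at 12.04, 12.36, 12.24 and 12.24 in wild type. Both nicotinamide arrays were low and all others lay close together, with the smallest SD of any member over the 12 arrays without nicotinamide (0.081). The beta subunit gene fell 6.40-fold (-2.68 ± 0.31, limma adjusted p = 0.000164). STE18 gave 5.64 and 4.79 in nicotinamide, 7.75 to 8.21 (median 8.01) in the deletion strains, and 8.18, 7.97, 8.11 and 8.19 in wild type. Again the nicotinamide arrays alone were low. The gamma subunit gene fell 7.45-fold (-2.90 ± 0.19, limma adjusted p = 2.22e-06).

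STE5 encodes the scaffold that holds the kinases of the pheromone cascade together. It measured 7.36 and 6.02 in nicotinamide, 9.47 to 9.91 (median 9.72) in the deletion strains, and 9.65, 9.65, 9.63 and 9.74 in wild type. The 4 wild-type arrays were close together, and the deletion arrays fell on both sides of them. The difference in nicotinamide was -2.97 ± 0.26, a 7.86-fold fall (limma adjusted p = 2.12e-05).

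FUS3, the mitogen-activated protein kinase at the end of that cascade, and FAR1, an inhibitor of the G1 cyclin-dependent kinase that stops division during mating and also orients growth toward the partner, had the largest falls of the group. FUS3 read 6.91 and 3.86 in nicotinamide, 10.61 to 10.83 (median 10.71) in the deletion strains, and 10.90, 10.74, 10.73 and 10.52 in wild type. The other 12 arrays spanned less than the gap between the 2 nicotinamide arrays. The fall was 40.4-fold (-5.34 ± 0.60, limma adjusted p = 0.000114). FAR1 gave 7.23 and 4.18 in nicotinamide, 11.00 to 11.68 (median 11.50) in the deletion strains, and 10.79, 11.33, 11.83 and 11.42 in wild type. It had the widest spread of any member over the 12 arrays without nicotinamide (SD 0.318), and the nicotinamide arrays still lay far below that spread. Its difference, -5.64 ± 0.63, was the lowest of all 5498 probe sets (49.7-fold, limma adjusted p = 0.00011). Since the nicotinamide arrays differ, the size depends on which is used: FAR1 was at -7.16 without array A and at -4.11 without array B. For both FUS3 and FAR1 the SD of the 2 nicotinamide arrays was 2.16. It was 1.17 for HO, 1.12 for GPA1 and STE4, 0.95 for STE5, 0.78 for NEJ1, 0.60 for STE18, 0.29 for RDH54 and 0.16 for AXL1. The standard errors given pool these SDs with the tighter untreated groups. For most members they therefore understate the spread between the nicotinamide arrays, and the p values rest on them.

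AXL1 encodes a protease that matures a-factor and also marks the axial bud site of haploids. It stood at 7.69 and 7.46 in nicotinamide, at 9.85 to 10.19 (median 9.94) in the deletion strains, and at 10.30, 10.24, 9.98 and 10.08 in wild type. The nicotinamide arrays were low and close to each other, unlike those of most members. The fall was 5.97-fold (-2.58 ± 0.10), with the smallest adjusted p of the 10 genes (limma, 2.64e-08).

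NEJ1 and RDH54 act on broken DNA. NEJ1 is a haploid factor of non-homologous end joining that binds the ligase partner Lif1, and it measured 7.19 and 6.10 in nicotinamide, 9.38 to 9.82 (median 9.55) in the deletion strains, and 10.07, 9.81, 9.50 and 9.71 in wild type. The fall was 8.74-fold (-3.13 ± 0.25, limma adjusted p = 1.09e-05). RDH54 is a DNA translocase related to Rad54 that acts in recombination. It read 8.73 and 8.31 in nicotinamide, 10.30 to 10.82 (median 10.60) in the deletion strains, and 10.76, 10.65, 10.50 and 10.74 in wild type. For both genes the nicotinamide arrays lay apart from the rest. RDH54 had the smallest fall of the 10, 4.41-fold (-2.14 ± 0.12, limma adjusted p = 5.2e-07).

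HO encodes the endonuclease that cuts the MAT locus to start mating-type switching, and the labels give no HO allele. Its signal was 7.98 and 6.33 in nicotinamide, 10.61 to 11.17 (median 10.88) in the deletion strains, and 11.24, 11.13, 10.64 and 10.97 in wild type. The nicotinamide arrays were low, and no other array came near them. The fall was 14.4-fold (-3.84 ± 0.35, limma adjusted p = 2.72e-05).

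**Figure D2:**
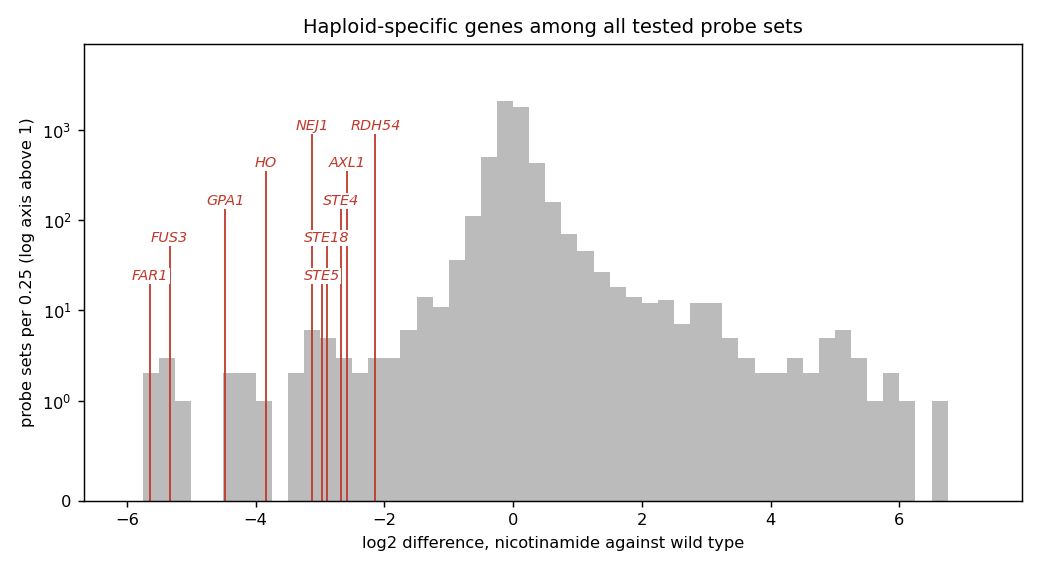
Log2 difference between nicotinamide and wild type for the 5498 tested probe sets, as grey bars of 0.25 width on a log count axis, with red lines at the 10 haploid-specific genes. The members run from -5.64 (FAR1) to -2.14 (RDH54), in the lower tail, where they hold 10 of the 30 lowest places and other genes hold the rest.

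The 2 nicotinamide cultures differed in how far these genes went down. Array A kept a median of 17.4% of the wild-type signal over the 10 genes and array B a median of 7.92%. FAR1 kept 5.79% on array A and 0.70% on array B, and FUS3 kept 7.12% and 0.86%. On array B they were the members nearest the background limit, 1.94 (FAR1) and 1.62 (FUS3) above it on the log2 scale. Their percentages there are less certain. RDH54, at the other end, kept 26.2% and 19.7%, and AXL1 kept 18.1% and 15.5%. All 10 members were lower on array B, with a median gap of -1.46 (log2) and a range from -3.05 (FAR1) to -0.23 (AXL1). Over all tested probe sets 48.9% were lower on array B, and the median size of the gap was 0.111. In the other 6 pairs of arrays the median gap of the members was between -0.11 and 0.09. The plot of the signal left on each nicotinamide array orders the genes by this measure.

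**Figure D3:**
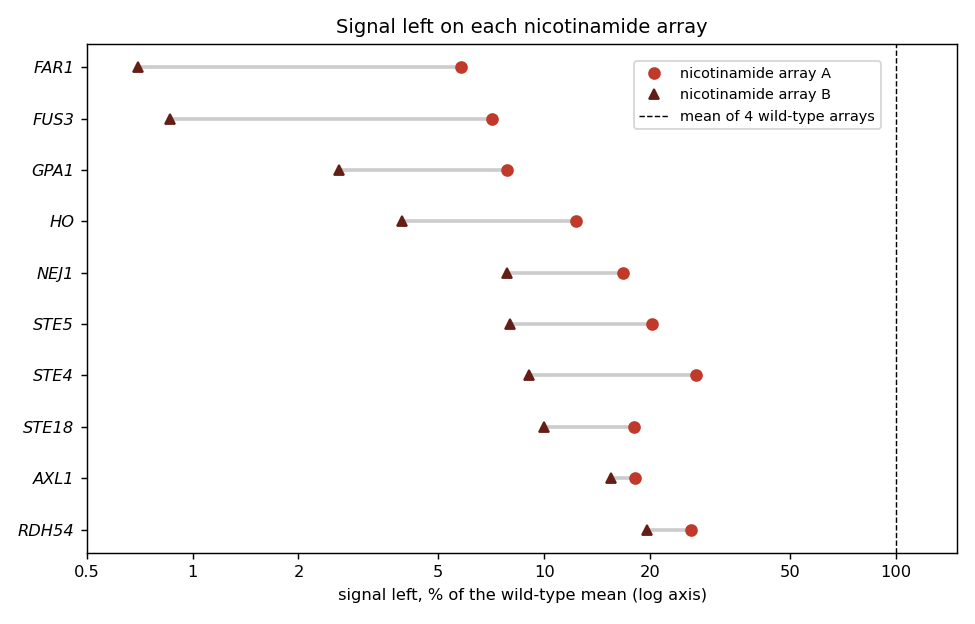
Signal of each haploid-specific gene on nicotinamide arrays A (circles) and B (triangles), as a percentage of the mean of the 4 wild-type arrays, on a log axis. The signal left runs from 0.70% (FAR1, array B) to 27.0% (STE4, array A), and the triangle lies left of the circle for every gene.

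Nicotinamide was also set against each deletion strain, in contrasts that use no wild-type array. The 10 members were called lower in all 4 contrasts, which share the same 2 nicotinamide arrays with each other and with the comparison against wild type, and so are not separate support. Their standard errors come from the spread within all groups of arrays, wild type included. In the same contrasts 3.75% of all probe sets were called lower against npt1Δ, 6.07% against pnc1Δ, 5.91% against bna1Δ and 4.97% against tna1Δ. The member medians were -2.88 against npt1Δ, -2.91 against pnc1Δ, -3.15 against bna1Δ and -2.95 against tna1Δ. FAR1 was lowest of all probe sets against npt1Δ (-5.58), pnc1Δ (-5.94) and tna1Δ (-5.95), and was at rank 3 from the lowest against bna1Δ (-5.34), where FUS3 was at -5.40. The weakest contrast was RDH54 against npt1Δ, at -1.86 ± 0.14 (3.63-fold, limma adjusted p = 1.55e-05).

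No member was called in a deletion strain. These 4 comparisons share the same 4 wild-type arrays, so their values are given side by side and not as separate support. In npt1Δ, 4.2% of all probe sets were called in either direction, in pnc1Δ 2.24%, in bna1Δ 0.0182% and in tna1Δ 0.0182%. The member medians were -0.21 in npt1Δ, -0.09 in pnc1Δ, 0.03 in bna1Δ and -0.10 in tna1Δ. An unadjusted limma p under 0.05 was reached by AXL1 and RDH54 in npt1Δ (15.5% of all probe sets), by AXL1 in pnc1Δ (14.9%), and by no member in bna1Δ (3.13%) or tna1Δ (3.58%).

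The smallest adjusted p values of members in a deletion strain were those of AXL1 and RDH54 in npt1Δ. AXL1 read 9.85 and 9.92 in npt1Δ, against 10.30, 10.24, 9.98 and 10.08 in wild type, a difference of -0.27 ± 0.10 (limma adjusted p = 0.231). RDH54 read 10.30 and 10.47 in npt1Δ, against 10.76, 10.65, 10.50 and 10.74 in wild type (-0.28 ± 0.12, limma adjusted p = 0.298). STE5, which was far from a call in this fit, read 9.47 and 9.49 in npt1Δ, against 9.65, 9.65, 9.63 and 9.74 in wild type (-0.18 ± 0.26, limma adjusted p = 0.765). In these 3 genes both npt1Δ arrays lay below all wild-type arrays, an arrangement found in 13.3% of all probe sets, and neither AXL1 nor RDH54 nor STE5 passed the test. In pnc1Δ this arrangement held for AXL1 (9.88 and 9.96; 13.4% of all probe sets). STE5 in bna1Δ lay above all wild-type arrays (9.91 and 9.79; 5.4% of all probe sets), and in tna1Δ no member lay wholly apart.

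The standard errors in that fit include the gap between the nicotinamide arrays, which is large for these genes. A fit of the other 12 arrays, added after the data were seen, lowered the median standard error of the members to 0.10, against 0.29 with all arrays. It called no member either, with 4% of all probe sets called in npt1Δ, 1.87% in pnc1Δ, 0.0182% in bna1Δ and 0.0182% in tna1Δ. At an unadjusted p under 0.05 this fit held STE5, AXL1 and RDH54 in npt1Δ (15.0% of all probe sets), AXL1 in pnc1Δ (14.5%), STE5 in bna1Δ (3.09%) and no member in tna1Δ (3.27%). STE5 had the smallest adjusted p in npt1Δ (-0.18 ± 0.05, limma adjusted p = 0.131). Its value in bna1Δ was 0.19 ± 0.05 (limma unadjusted p = 0.00703, adjusted p = 1). In this fit the unadjusted 95% intervals of the 10 members reached at most from -0.64 to 0.45 in npt1Δ, -0.65 to 0.80 in pnc1Δ, -0.81 to 0.39 in bna1Δ, and -0.60 to 0.82 in tna1Δ. The narrowest were those of STE5, from -0.31 to -0.06 in npt1Δ and from 0.07 to 0.31 in bna1Δ, which leave out 0 before adjustment. The plot of differences from wild type gives the intervals of the fit with all arrays.

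**Figure D4:**
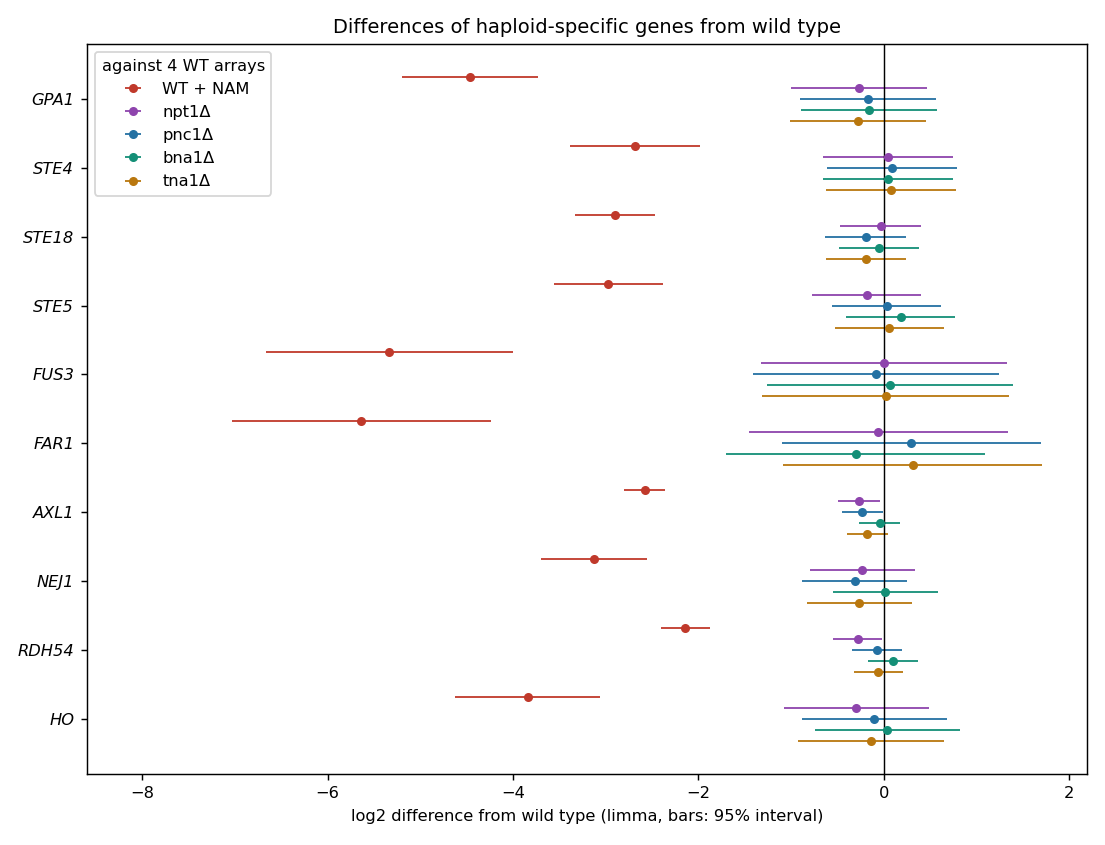
Log2 difference from the 4 wild-type arrays for each haploid-specific gene in nicotinamide and in the 4 deletion strains, with points for the limma estimate and bars for its 95% interval. The nicotinamide points lie between -5.64 and -2.14, and the deletion points between -0.31 and 0.31.

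Between the untreated wild-type pairs no member was called in ML1 against ML8, where 0.0728% of all probe sets were called. An unadjusted limma p under 0.05 was reached by AXL1 alone (0.24 ± 0.09; 18.0% of all probe sets). Both ML1 arrays were above both ML8 arrays for GPA1, FUS3, AXL1, NEJ1 and HO (21.0% of all probe sets) and below them for FAR1 (20.2%). FAR1 differed most, with 10.79 and 11.33 on the ML1 arrays and 11.83 and 11.42 on the ML8 arrays (-0.56 ± 0.74, limma adjusted p = 0.72).

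Other genes of mating and cell type were described by lists. Of 14 genes of the pheromone pathway that haploids and diploids share, 4 fell in nicotinamide, 0 rose, and the median was -0.26. The transcription factor gene STE12 fell to 9.12 and 8.96 in nicotinamide, against 11.11, 10.63, 10.67 and 10.57 in wild type (-1.71 ± 0.13, limma adjusted p = 6.25e-06). Also called lower were its inhibitor DIG1 (-1.31), the kinase KSS1 (-1.22) and the p21-activated kinase STE20 (-0.31). All 14 were at smaller differences than the smallest of the 10 haploid-specific genes.

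A further list, taken as low in a/alpha cells, held RME1, a repressor of meiosis, SST2, which turns off Gpa1 signalling, and KAR3, a kinesin. No a/alpha strain was measured here, so the level of these genes in such cells was not tested. SST2 fell (-3.35 ± 0.32, limma adjusted p = 3.55e-05) and so did RME1 (-2.27 ± 0.22, limma adjusted p = 3.9e-05), while KAR3 was at -0.17 ± 0.12 and was not called. Of 11 genes induced by Ste12 in mating, 8 fell in nicotinamide and 1 rose. Among them AGA1, the anchor of the agglutinin, was at -3.19, FUS1, a cell fusion gene, at -3.04, PRM6 at -2.80 and PRM1 at -2.45. FIG1 rose by 1.30 ± 0.39 (limma adjusted p = 0.0483). In npt1Δ 3 of the 11 rose (3.56% of all probe sets were called higher) and 0 fell: FIG1 by 2.21, FUS2 by 1.41 and PRM3 by 0.45. In npt1Δ none of the 10 haploid-specific genes was called.

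The 7 a-specific genes, which alpha2 keeps off, all fell in nicotinamide, with a median of -5.06. MFA1, which encodes a-factor, stood at 9.33 and 7.05 in nicotinamide, against 13.90, 13.84, 13.77 and 13.80 in wild type (-5.63 ± 0.45, limma adjusted p = 8.52e-06). Like the haploid-specific genes, these were lower on nicotinamide array B. Their summed level, weighted to the brightest probe sets, was 13.1 (log2) on array A and 10.5 on array B. It was 16.3 to 16.4 on all others. AGA2 was at -5.43, ASG7 at -5.37 and BAR1 at -5.06.

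Partners of single members moved less. Of 6 genes that act with AXL1 in making a-factor, 4 fell and 1 rose in nicotinamide: the methyltransferase STE14 was at -1.20, the prenyltransferase subunits RAM2 at -0.53 and RAM1 at -0.39, and the protease RCE1 at 0.72. In npt1Δ 1 of the 6 fell, STE23 (-0.32, adjusted p = 0.0386 by limma), beside 0.637% of all probe sets called lower. Of 8 end-joining genes that act with NEJ1, limma called 0 in nicotinamide and 0 had an unadjusted p under 0.05, and their median there was -0.04. Of 8 measured recombination genes that act with RDH54, 2 rose in nicotinamide (8.88% of all probe sets were called higher), RAD59 by 0.65 and the meiotic recombinase DMC1 by 0.44, and in npt1Δ DMC1 rose by 0.52. Of 9 measured regulators of HO, 3 fell in nicotinamide: its activator SWI5 (-0.93), its repressor ASH1 (-0.71) and SWI6 (-0.30), a subunit of its cell cycle activator. In pnc1Δ, bna1Δ and tna1Δ limma called 0 of the 94 measured entries of all 11 lists described here, the marker lists included. At an unadjusted p under 0.05 the entries were 9 in pnc1Δ (14.9% of all probe sets), 0 in bna1Δ (3.13%) and 3 in tna1Δ (3.58%).

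The regulators and makers of mating type did not reach the threshold against wild type: of 13 measured genes, limma called 0 in any of the 5 comparisons with it, and in nicotinamide and npt1Δ 0 had an unadjusted p under 0.05. HMRA1, which reads the a1 sequence that MATa also carries, was at 10.15 and 10.35 in nicotinamide, against 10.26, 9.91, 10.13 and 10.21 in wild type (0.12 ± 0.11, limma adjusted p = 0.532). The probe set of HMLALPHA1, of a design shared with near-identical genes, was at 2.02 to 2.03 and under the background limit on all 14 arrays, nicotinamide included. No alpha strain was measured, so whether this probe set can detect its transcript was not tested. HMLALPHA2 was not analysed here, so no level of an alpha2 transcript can be set beside these falls. SIR2 was called between the wild-type pairs (-1.55 ± 0.19 in ML1 against ML8, limma adjusted p = 0.0248), with 8.96 and 8.65 in ML1 and 10.35 and 10.36 in ML8. It read 9.65 and 9.69 in nicotinamide, 10.40 and 10.20 in npt1Δ, 9.11 and 8.67 in pnc1Δ, 10.45 and 10.21 in bna1Δ, and 8.67 and 8.21 in tna1Δ. Thus pnc1Δ and tna1Δ read near ML1, and npt1Δ and bna1Δ near ML8, and what part this split has in the members' values was not tested.

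Some markers of other cell types changed in nicotinamide, and some of these changed in npt1Δ as well. Of 5 alpha-cell markers, 1 rose in nicotinamide, STE3, the receptor for a-factor, with 7.71 and 7.96 in nicotinamide against 2.46, 2.78, 3.35 and 2.52 in wild type (5.06 ± 0.21, limma adjusted p = 4.02e-08). In npt1Δ STE3 read 7.66 and 7.58 (4.85 ± 0.21, limma adjusted p = 1.09e-07), and AFB1 rose by 1.46, while no haploid-specific gene was called there. MF(ALPHA)1, which encodes alpha-factor, read 2.29 and 2.09 in nicotinamide, 2.47 and 2.24 in npt1Δ and 2.08 to 2.09 in wild type, and passed the background limit on 2 of the 14 arrays. The summed level of the 5 was 11.0 to 11.1 (log2) in nicotinamide, 11.6 in npt1Δ and 10.1 to 10.7 in wild type. This sum is set mostly by the brightest probe sets, AFB1 and SAG1, which were not called in nicotinamide. It is therefore not a measure of alpha-cell markers as a set. Of 10 markers of a/alpha and meiotic cells, 6 rose and 1 fell in nicotinamide, and 4 rose in npt1Δ. SPR3, a septin of sporulation, rose by 5.42 in nicotinamide and 3.98 in npt1Δ. IME4, a methyltransferase needed for meiosis, rose by 2.81 in nicotinamide and was at -0.44 in npt1Δ, which was not called. SPS4 rose by 1.74 in nicotinamide, and SPO11, the meiotic double-strand break gene, fell by 1.34 in nicotinamide and rose by 0.59 in npt1Δ. The summed level of the 10 was 9.56 to 9.84 in nicotinamide, 9.01 to 9.17 in npt1Δ and 8.26 to 8.56 in wild type. This sum too is weighted to its brightest probe sets. The part of these markers in the members' falls was not tested. The plot of the lists gives each gene's difference.

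**Figure D5:**
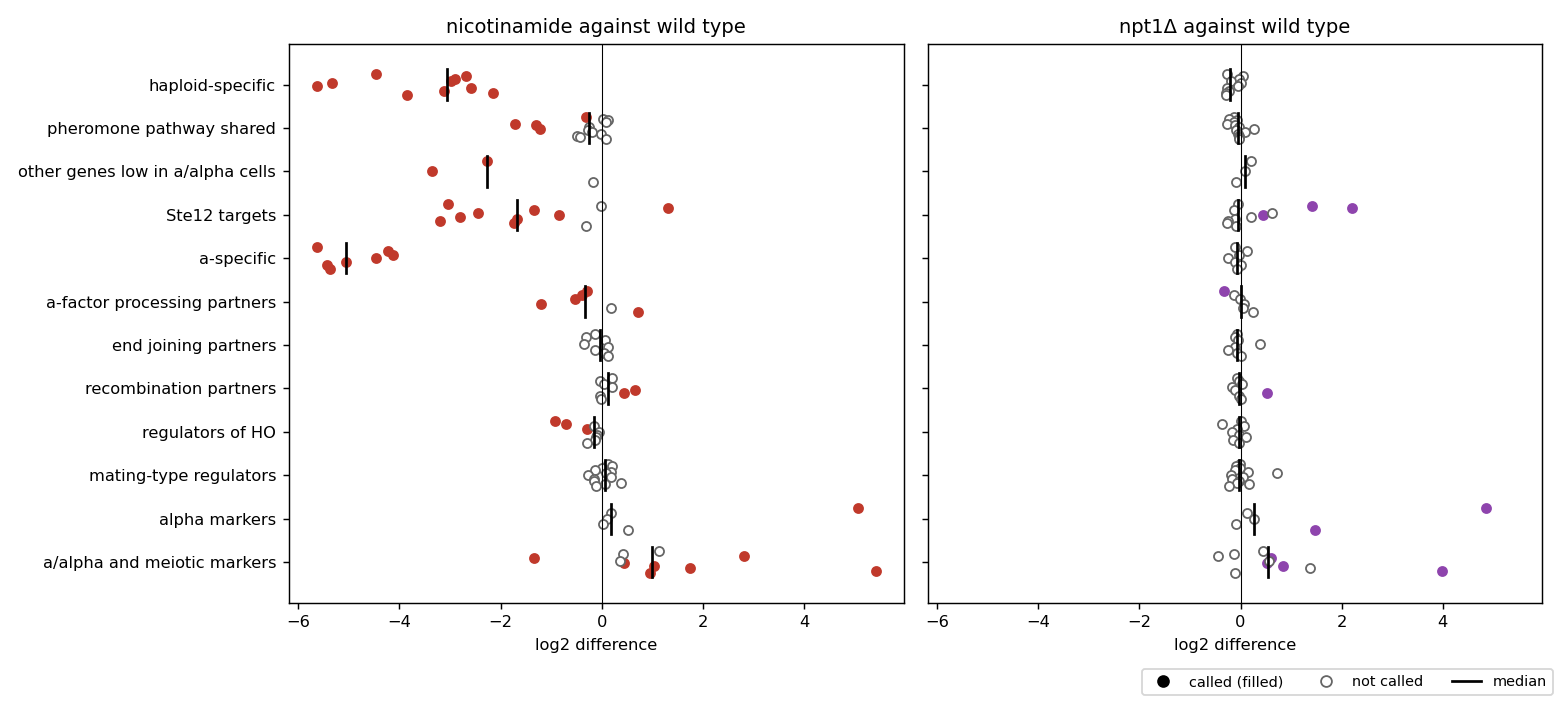
Log2 difference from wild type of each gene of the haploid-specific group and of the other lists, in nicotinamide and in npt1Δ, with 1 point a gene and filled points for genes called by limma at an adjusted p under 0.05. In nicotinamide all 10 haploid-specific and all 7 a-specific genes lie to the left, and in npt1Δ both groups lie near 0.

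The 10 genes moved together over all 14 arrays and far less so without the nicotinamide arrays. Over 14 arrays the correlation of pairs of members had a median of 0.98 and a lowest value of 0.94. Over the 12 other arrays, it had a median of 0.19, from -0.83 (FAR1 with NEJ1) to 0.89 (AXL1 with HO), and 19 of the 45 pairs were below 0. The 14-array values are set by the 2 nicotinamide arrays, and array pairs share a culture condition, so these correlations are descriptions.

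The probe sets most like the mean of the members over the 14 arrays were STE6, MFA1, BAR1, STE2, AGA2, ASG7, YNL146C-A, AGA1, RME1 and VBA2, with correlations from 0.999 (STE6) to 0.986 (VBA2). In nicotinamide STE6 was at -4.47, YNL146C-A at -3.12 and VBA2 at -1.46, all called lower. Those least like it were PFS1, BAG7, GEX1, ADH7 and PDC6, with correlations from -0.998 (PFS1) to -0.975 (PDC6), and they rose in nicotinamide by 0.97 (BAG7) to 2.89 (GEX1). These values over 14 arrays share the same dependence on the 2 nicotinamide arrays.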

How the data were processed

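The deposited table holds log2 signals for 10928 probe sets on 14 arrays, which the authors made with GCRMA, per the submitters' processing notes. The GCRMA version was not given in the sources used here. No further normalization was applied. Gene names came from the platform annotation and the R64 reference. The 5498 with 1 S. cerevisiae gene were tested, and for a gene with several the brightest stood for it. Differences were fitted with limma 3.58.1 in R 4.3.3 (lmFit and eBayes, 8 residual degrees of freedom), with Benjamini-Hochberg adjustment over the 5498. The 4 wild-type arrays formed 1 group, and ML1 and ML8 were compared in a fit of 7 groups. Intervals are 95%. The steps were tested on simulated data.

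The members and lists were chosen with earlier results of these data known. All members are named, with up to 4 called genes of each list by size of change, and the 10 most and 5 least alike probe sets by Pearson correlation with the members' mean. Values named beyond this were chosen after they were seen. Alternatives covered the control pair, the arrays in the fit, normalization, dim probe sets, moderation, threshold, replicate block and single arrays.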

Additional observations from a re-analysis of the deposited data

Results flagged for a closer look

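Among the 4 wild-type arrays, STE5 on array ML8 B stood at 9.74 (log2), apart from the other 3 at 9.63 to 9.65, and SPR3 on array ML8 A at 2.57, apart from the other 3 at 2.82 to 2.87. In both cases the gap to the nearest array took up more of the range than 95% of groups of 4 would show. Of 44 genes checked, 2 had such an array, and chance gives about 1 group in 20.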

How the results depend on the processing

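All 139 repeats of the counts under other settings gave the same number of called members. It was 10 for the nicotinamide contrasts and 0 for the others. None of 1390 repeats of single members changed its side of the threshold, and 32 differences that were not called changed sign. These repeats include fits without an array of a pair, which leave a lone array in that group. Without a nicotinamide array, the gap between the nicotinamide arrays drops out of the error estimate. Member calls from such fits therefore cannot show whether the result depends on the array left out, and only their differences are informative. In nicotinamide against wild type the member median ran from -3.66 (without array A) to -2.53 (without array B), and was -3.42 after quantile normalization. The largest adjusted p of a member there was 0.0124 by limma, in a fit of only the arrays compared.

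Counts over all probe sets depended more on the setting. In nicotinamide limma called 488 higher and 386 lower, against 455 and 568 after quantile normalization, 553 and 285 after centring, 337 and 196 in a fit of only the arrays compared, and 297 and 161 without nicotinamide array B. The total called was 231 in npt1Δ (138 to 311 over the alternatives), 123 in pnc1Δ (22 to 240), 1 in bna1Δ (1 to 4), 1 in tna1Δ (1 to 6) and 4 in ML1 against ML8 (1 to 1132, the last without array ML1 B). Lower calls in nicotinamide against npt1Δ were 206 (122 to 250), against pnc1Δ 334 (165 to 470), against bna1Δ 325 (161 to 445) and against tna1Δ 273 (134 to 446), with the fewest without nicotinamide array B, or against bna1Δ without bna1Δ array B. Against wild type 185 higher and 65 lower calls in nicotinamide were at least 2-fold.

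With the replicate letter as a replicate block, 10 members were called in nicotinamide and 0 in each deletion strain, with 571 higher and 474 lower calls over all probe sets in nicotinamide. Same-letter deviations correlated between groups at -0.23 to 0.59 (median 0.39), above 0.1 in 17 of 21 pairs of groups but not in all. The labels do not say what a letter marks, so the letter was not taken as a pairing, and whether it marks a shared day or batch was not tested. The number of arrays, 2 a condition, limits the precision of every size given.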

Other observations

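Most of the measured genes next to the members on the chromosome were not called in nicotinamide. This set of 20 neighbours was added after the data were seen and takes the order of genes from the R64 reference assembly. Of 18 neighbours measured, 4 fell, 0 rose, and the median was -0.07 (log2). The share that fell, in this small set, was above the 7.02% of all probe sets called lower. MGM1, a mitochondrial fusion gene next to STE4, was at -0.99, THI22 next to AXL1 at -0.81, SPO71 next to STE5 at -0.47 and TIM10 next to GPA1 at -0.29.

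The 2 members with the smallest gap between the nicotinamide arrays, AXL1 (-0.23, array B minus A) and RDH54, also had the smallest standard errors in nicotinamide, 0.10 and 0.12. FUS3 and FAR1 had the largest gaps and standard errors of 0.60 and 0.63. The standard errors are computed from such gaps within groups, so the 2 measures are not independent. IME4 read 5.32 and 5.91 in nicotinamide, against 3.65 and 2.73 on the ML1 arrays and 2.43 and 2.39 on the ML8 arrays.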
